A study of Mus musculus with 20 samples.

Results

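RNA from pachytene spermatocytes was compared with RNA from leptotene and zygotene spermatocytes of the adult mouse testis. The 4 libraries were taken by their labels from the 20 samples of the series, of which 10 are RNA libraries. There were 2 libraries of pachytene cells and 2 of leptotene and zygotene cells, which were collected together, and each pair was labelled as separate biological replicates. Both groups came from wild-type C57Bl/6J mice aged about 70 to 80 days, with no treatment and no engineered allele in either. The cells were enriched by the STA-PUT method, in which a suspension of testis cells settles at unit gravity and parts by diameter and density, so the fractions rest on cell size rather than on a marker or a transgene. The submitters judged purity by microscopy, at about 90% for pachytene and above 90% for leptotene/zygotene. The number of animals behind each fraction is not given in the sources used here. The comparison asks which transcripts differ between these successive steps of meiotic prophase.

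Meiotic prophase is the long first phase of meiosis. In leptotene the chromosomes condense along protein axes and the enzyme SPO11 breaks the DNA, and in zygotene the homologous chromosomes pair and begin to be zipped together by the synaptonemal complex. In pachytene synapsis is complete, crossovers form, and the X and Y chromosomes, which pair over only a short stretch, are packed into a silenced body. Pachytene cells also produce the bulk of the PIWI-interacting RNAs (piRNAs) of the adult testis, and they begin to transcribe genes whose proteins are used after meiosis. The haploid spermatids that follow pack their DNA with transition proteins and then protamines, and build the acrosome and the tail.

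The pachytene libraries held 6423696 and 9280910 reads counted on genes, against 3597360 and 20545793 in the leptotene/zygotene libraries. A floor of 3 counts corresponded to 0.283 to 0.402 CPM (a gene's count relative to the size of its library) in pachytene and to 0.171 to 0.954 CPM in leptotene/zygotene, and it covers counting error only. Both libraries numbered 1 had a larger share of unaligned reads, 42.1% in pachytene and 39.2% in leptotene/zygotene, than the libraries numbered 2, with 18.8% and 19.9%. Levels below are CPM on library sizes scaled by TMM, given for replicate 1 and then replicate 2, and log2 fold changes are pachytene over leptotene/zygotene with their standard error (SE). A gene is said to rise or fall in pachytene only where edgeR's quasi-likelihood test gave an adjusted p under 0.05 over all genes tested, and every adjusted p is from that test unless another fit is named. With 2 libraries a group this test has 2 residual degrees of freedom, and the smallest adjusted p it gave was 0.0237.

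The stage markers did not all follow the labels. Spo11, Dmc1, Prdm9, Sycp1, Sycp3, Rec8, Hormad1 and Meiob are known from leptotene and zygotene, and none of them was higher in the libraries of that label by the test without a replicate block. Spo11, the enzyme that makes meiotic DNA breaks, stood at 28.7 and 79.5 CPM in pachytene and at 8.27 and 39.4 CPM in leptotene/zygotene. Dmc1, the meiotic strand-exchange recombinase, was low throughout, at 3.48 and 1.22 CPM in pachytene and 6.36 and 2.79 CPM in leptotene/zygotene. Prdm9, which places the breaks, had 5.09 and 2.07 CPM in pachytene and 6.68 and 1.82 CPM in leptotene/zygotene. For these 3 genes the groups overlapped. Rec8, the meiotic cohesin subunit, overlapped as well, at 14.3 and 32.6 CPM in pachytene and 22.6 and 77.7 CPM in leptotene/zygotene. Sycp1, of the transverse filaments of the synaptonemal complex, had 39.6 and 127 CPM in pachytene and 35.3 and 60 CPM in leptotene/zygotene. Meiob, which binds single-stranded DNA in recombination, had 10.3 and 14.9 CPM in pachytene and 6.36 and 8.27 CPM in leptotene/zygotene. With the replicate number as a block, Spo11, Sycp1 and Meiob were higher in pachytene (adjusted p = 7.1e-05, 0.0097 and 0.018), as were Sycp3 and Hormad1 (9.6e-08 and 3.9e-07), and Dmc1 and Rec8 were lower in pachytene (0.044 and 0.00043). Sycp3 and Hormad1 rose in pachytene, with the values given below. Stra8, the switch for meiotic entry, was at 5.09 and 2.73 CPM in pachytene and 5.09 and 3.76 CPM in leptotene/zygotene.

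Transcripts of spermatids were more abundant in the libraries labelled leptotene/zygotene than in those labelled pachytene. The 7 protamine and transition protein genes together took 0.447% and 0.307% of the reads on genes in pachytene, and 2.6% and 2.73% in leptotene/zygotene. In the whole testes of days 1, 3 and 7, which hold no spermatids, the same genes took at most 0.00367%. Of the genes known from pachytene, Piwil1 rose. Mybl1, a transcription factor of pachytene cells, was at 107 and 108 CPM in pachytene and 50.6 and 44 CPM in leptotene/zygotene (log2 fold change 1.19, adjusted p = 0.061; 1.4e-05 with a replicate block). Ldhc, the lactate dehydrogenase of germ cells, overlapped between the groups, at 2741 and 3825 CPM in pachytene and 2705 and 4143 CPM in leptotene/zygotene. So did Ccna1, the cyclin of the meiotic division, at 163 and 212 CPM in pachytene and 174 and 206 CPM in leptotene/zygotene. The groups are therefore named below by their labels. Whether the labels of the fractions were exchanged was not tested, and every direction given here follows the labels and would turn with them. The part that cells of other stages have in any difference was not tested. In bulk RNA, fewer cells of a type and less RNA per cell cannot be told apart.

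**Figure D1:**
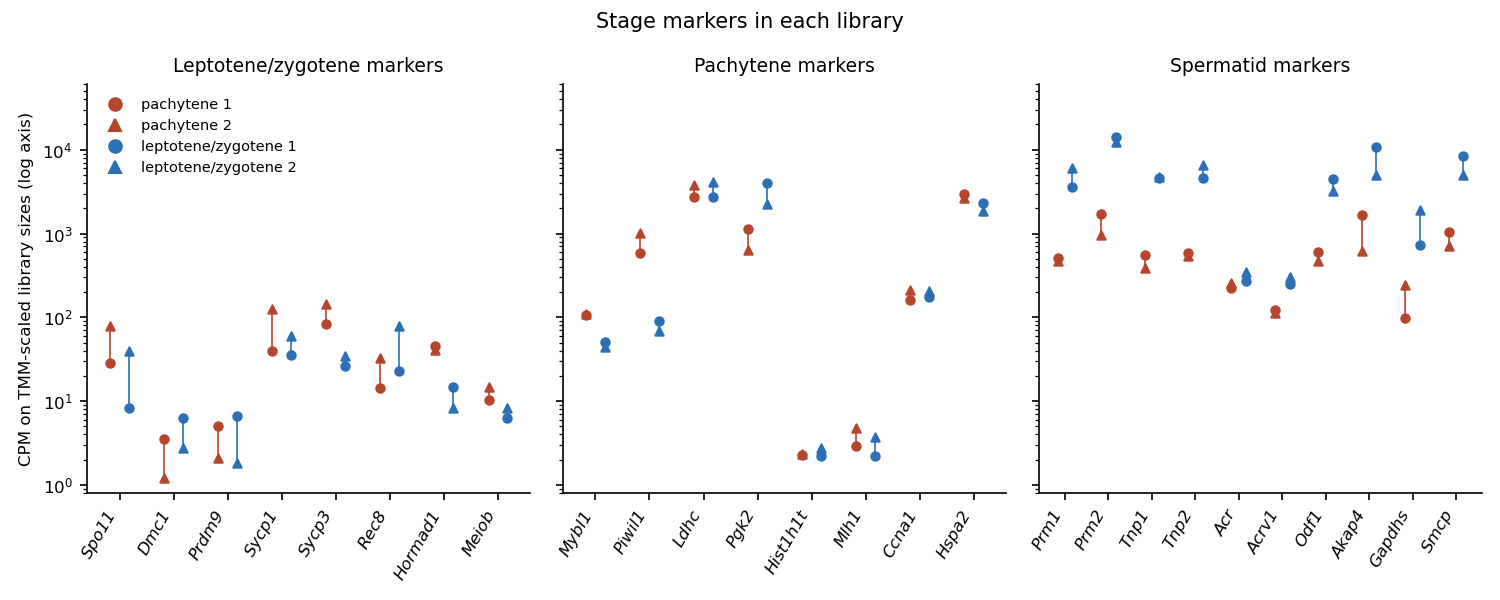
Level of each stage marker in each library, in CPM on TMM-scaled library sizes on a log axis, with pachytene left of leptotene/zygotene for every gene, circles for replicate 1, triangles for replicate 2 and a line joining the replicates. Sycp3 and Hormad1 of the leptotene/zygotene markers were higher in pachytene, and protamine and transition protein genes were lower in pachytene, by a median log2 fold change of −3.3.

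Of 13609 genes tested 930 passed, which is 6.83%, with 299 higher (2.2%) and 631 lower (4.64%) in pachytene. The median log2 fold change of all genes tested was 0.06, and among the genes that passed the smallest absolute value was 1.17 and the median 2.26. The replicates numbered alike deviated together, and with the replicate number as a block 6928 genes passed (50.9%), with 3493 higher (25.7%) and 3435 lower (25.2%). Without the block, 1650 of the 13609 genes were higher and 2055 lower at an unadjusted p under 0.05, and DESeq2 called 780 higher and 1266 lower. Counts of list members under the block, at an unadjusted p or by DESeq2, given below, stand beside these values for all genes. Both pachytene libraries lay above both leptotene/zygotene libraries in 28.8% of the genes tested, and below both in 27.1%. All 930 genes had the same direction and passed under the block, and 241 of them passed without replicate 2 of pachytene, 472 without replicate 1 of pachytene, 918 without replicate 1 of leptotene/zygotene and 794 without replicate 2 of leptotene/zygotene. In the lists of tail genes, testis-specific serine kinases, piRNA pathway, spermatogonia and somatic energy isozymes, the direction with no call by edgeR also had none at an unadjusted p under 0.05 and none by DESeq2. With plain library sizes in place of TMM the split turned to 842 higher and 416 lower, and the median of all genes moved by 0.42 on the log2 scale.

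The 10 largest rises among genes past the test belonged to genes of at most 15 CPM in any leptotene/zygotene library. Sap30, a subunit of the Sin3 histone deacetylase complex, had 22 and 38.2 CPM in pachytene and 1.59 and 2.62 CPM in leptotene/zygotene, a log2 fold change of 3.75 ± 0.51 (SE; adjusted p = 0.0237). Pou5f2, a POU-domain transcription factor of male germ cells, had 111 and 135 CPM in pachytene and 15 and 6.9 CPM in leptotene/zygotene (3.55 ± 0.47, adjusted p = 0.0237). Cks2, a small subunit of cyclin-dependent kinases that mouse meiosis requires, had 43.4 and 26.6 CPM in pachytene and 4.45 and 2.22 CPM in leptotene/zygotene (3.48 ± 0.54, adjusted p = 0.0288). For all of them the lower pachytene library was several times the higher leptotene/zygotene library. Ckap2, a protein of the mitotic spindle, and Ttc5, a cofactor of p53, had log2 fold changes of 3.42 ± 0.44 and 3.37 ± 0.44. The other 5 of the 10 largest rises were 2610001J05Rik, 4930579G24Rik, AI467606, 4921525O09Rik and Fam174b, at 3.44 to 3.70. Without replicate 2 of pachytene the adjusted p of Ttc5 was 0.0556 and that of AI467606 was 0.0682, and without replicate 1 of pachytene AI467606 had 0.0615.

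The largest fall among genes past the test was that of Beta-s, a beta chain of haemoglobin. It had 1.21 and 0.283 CPM in pachytene and 36.6 and 22.1 CPM in leptotene/zygotene, a log2 fold change of −5.35 ± 0.75 (adjusted p = 0.0249), and its lower pachytene value is the level of 3 counts, the floor of that library. Ttc24, a protein with tetratricopeptide repeats, had 6.43 and 7.91 CPM in pachytene and 62.7 and 90.5 CPM in leptotene/zygotene (−3.42 ± 0.36, adjusted p = 0.0237). Neither gene overlapped between the groups. Traf1, an adaptor of tumour necrosis factor receptors, Olfr733, an olfactory receptor, and Calml3, a relative of calmodulin, had log2 fold changes of −3.65 ± 0.61, −3.65 ± 0.50 and −3.56 ± 0.64. Arl9, a small GTPase, Phospho1, a phosphatase known from mineralising bone, 1700008P02Rik and 1700029B22Rik were also among the 10 largest falls, at −3.39 to −3.64. Without replicate 2 of pachytene the adjusted p was 0.0554 for Traf1, 0.0754 for Olfr733, 0.0793 for Arl9 and 0.105 for Calml3, and without replicate 1 it was 0.0679 for Traf1 and 0.0556 for Calml3.

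Genes of the proteins that replace histones in spermatids were all lower in pachytene. Of the 7 protamine, transition protein and spermatid linker histone genes, all 7 fell in pachytene, with a median log2 fold change of −3.3 against 0.06 for all genes tested. Prm2, the longer protamine, had 1686 and 952 CPM in pachytene and 14220 and 12390 CPM in leptotene/zygotene, a log2 fold change of −3.33 ± 0.38 (adjusted p = 0.0237). Prm1 had 510 and 471 CPM in pachytene and 3597 and 6032 CPM in leptotene/zygotene (−3.30 ± 0.35, adjusted p = 0.0237). The transition proteins bridge the exchange of histones for protamines. Tnp1 had 559 and 385 CPM in pachytene and 4625 and 4754 CPM in leptotene/zygotene (−3.31 ± 0.31, adjusted p = 0.0237), and Tnp2 had 586 and 542 CPM in pachytene and 4614 and 6638 CPM in leptotene/zygotene (−3.32 ± 0.31, adjusted p = 0.0237). These 4 genes differed by nearly the same fold, and no pachytene library reached a leptotene/zygotene library. H1fnt and Hils1, the linker histones of spermatids, and Prm3 fell, with log2 fold changes of −2.91, −1.92 and −2.95. Without replicate 2 of pachytene 6 of the 7 passed, and Hils1 had an adjusted p of 0.0914.

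Genes of the sperm tail were all on the lower side. Of 20 genes of the fibrous sheath, the outer dense fibres and neighbouring tail structures, 4 fell, none rose and all 20 had log2 fold changes below 0, with a median of −1.38, and 17 fell with the replicate block. Odf1, the main protein of the outer dense fibres, had 603 and 474 CPM in pachytene and 4444 and 3226 CPM in leptotene/zygotene (−2.83 ± 0.31, adjusted p = 0.0237). Smcp, a cysteine-rich protein of the sperm mitochondrial capsule, had 1039 and 708 CPM in pachytene and 8328 and 5003 CPM in leptotene/zygotene (−2.93 ± 0.39, adjusted p = 0.0237). Oaz3, an antizyme of haploid germ cells, had 450 and 379 CPM in pachytene and 3415 and 3037 CPM in leptotene/zygotene (−2.96 ± 0.27, adjusted p = 0.0237). For each of them the groups were far apart. Akap3, a scaffold of the fibrous sheath, fell by 1.61 ± 0.28 (adjusted p = 0.0375), and its adjusted p was 0.133 without replicate 2 and 0.0544 without replicate 1 of pachytene. Akap4, the most abundant fibrous sheath protein, had 1649 and 619 CPM in pachytene and 10752 and 4938 CPM in leptotene/zygotene (−2.79 ± 0.62, adjusted p = 0.0571; 1.4e-11 with the replicate block). Without replicate 1 of leptotene/zygotene 14 of the 20 fell, against 3 without replicate 2 of pachytene.

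The testis-specific serine kinases of spermatids lay on the same side. Of 6 members, 4 fell, none rose, and the median log2 fold change was −1.96. Tssk6, which sperm need for DNA condensation, had 61.7 and 54.3 CPM in pachytene and 491 and 593 CPM in leptotene/zygotene (−3.23 ± 0.28, adjusted p = 0.0237). Tssk3 and Tssk2 fell, with log2 fold changes of −2.73 ± 0.39 and −2.46 ± 0.37, and Tssk1 fell by 1.46 ± 0.30 (adjusted p = 0.0483; 0.0770 without replicate 1 and 0.219 without replicate 2 of pachytene). With the replicate block all 6 fell.

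Acrosome and axoneme genes did not share that size of difference. Among 18 acrosome genes none fell by edgeR, 15 had log2 fold changes below 0 and the median was −1.07. At an unadjusted p under 0.05 there were 6 lower, 6 fell by DESeq2 and 10 with the replicate block. Acr, the protease acrosin, had 224 and 260 CPM in pachytene and 268 and 350 CPM in leptotene/zygotene (−0.36 ± 0.27, adjusted p = 0.462). Acrbp, its binding protein, overlapped between the groups, at 464 and 721 CPM in pachytene and 570 and 871 CPM in leptotene/zygotene. Tex101, a membrane glycoprotein of spermatocytes and later germ cells, was the single member past the test and rose, at 131 and 154 CPM in pachytene and 31.5 and 16.9 CPM in leptotene/zygotene (2.58 ± 0.40, adjusted p = 0.0292). Among 20 axoneme genes tested none passed by edgeR, 2 were higher and 2 lower at an unadjusted p under 0.05, and 1 fell by DESeq2. Their median was 0.14. With the replicate block 7 axoneme genes rose and 5 fell, beside 25.7% and 25.2% of all genes tested. Dnahc8, a heavy chain of the outer dynein arm, had 2385 and 2750 CPM in pachytene and 1691 and 1557 CPM in leptotene/zygotene (0.66 ± 0.24, adjusted p = 0.157; 0.00046 with the replicate block).

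**Figure D2:**
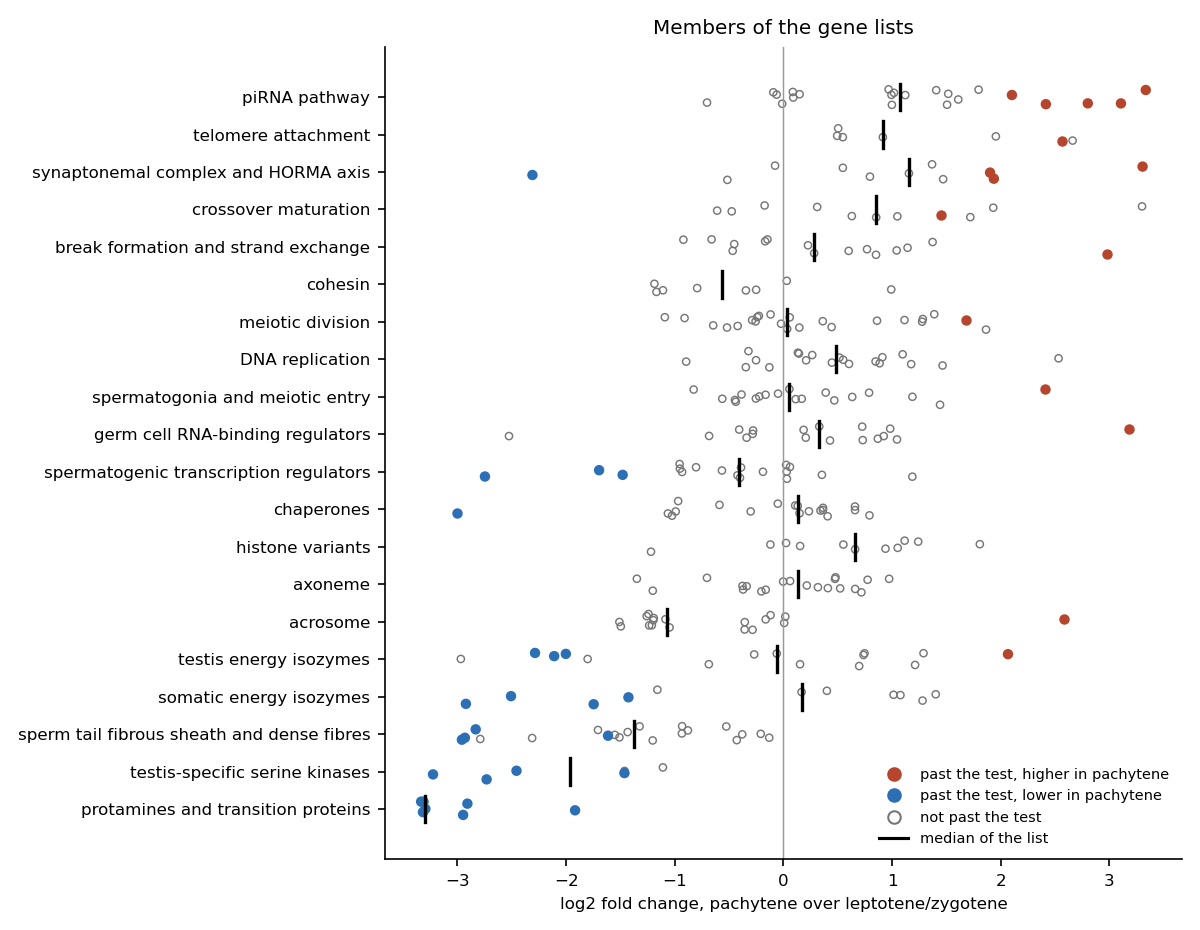
Log2 fold change, pachytene over leptotene/zygotene, of every tested member of 20 gene lists, with filled points for members past the test, open points for the others and a bar at the median of each list. The piRNA pathway, with a median of 1.07, stood at the higher end, and the protamines and transition proteins, at −3.3, at the lower end.

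The piRNA pathway had 5 members higher in pachytene. PIWI proteins carry piRNAs, Tudor-domain proteins assemble them in germ granules, and a nuclease on the mitochondrial surface cuts the precursors. Of 22 members tested, these 5 rose and none fell, with a median log2 fold change of 1.07, and 15 rose and 1 fell with the replicate block. Piwil1, the PIWI protein of pachytene piRNAs, had 589 and 1004 CPM in pachytene and 89.7 and 68.5 CPM in leptotene/zygotene, a log2 fold change of 3.34 ± 0.38 (adjusted p = 0.0237). Tdrd1, a Tudor protein that binds PIWI proteins, had 392 and 413 CPM in pachytene and 65.9 and 49.9 CPM in leptotene/zygotene (2.80 ± 0.28, adjusted p = 0.0237). Tdrd5, another Tudor protein, had 185 and 206 CPM in pachytene and 32.1 and 14.2 CPM in leptotene/zygotene (3.11 ± 0.46, adjusted p = 0.0276). In all 3 the lower pachytene value was several times the higher leptotene/zygotene value. Pld6, the mitochondrial nuclease, had 130 and 158 CPM in pachytene and 27.7 and 26.3 CPM in leptotene/zygotene (2.42 ± 0.29, adjusted p = 0.0237). Piwil2, the second PIWI protein of spermatocytes, had 309 and 264 CPM in pachytene and 83 and 51 CPM in leptotene/zygotene (2.10 ± 0.34, adjusted p = 0.0316). These 5 genes passed with any of the 4 libraries left out.

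Other members of the pathway were abundant in both groups and overlapped between them. Tdrd6, a Tudor protein of the chromatoid body, had 2995 and 2079 CPM in pachytene and 2805 and 1959 CPM in leptotene/zygotene (0.09 ± 0.32, adjusted p = 0.899). Mael, a protein of piRNA processing bodies, had 863 and 1111 CPM in pachytene and 787 and 1317 CPM in leptotene/zygotene. Ddx4, the germ cell RNA helicase known as vasa, had 617 and 629 CPM in pachytene and 523 and 600 CPM in leptotene/zygotene (0.15 ± 0.24, adjusted p = 0.753). Reads of the 23 listed genes made up 0.89% and 0.891% of those on genes in pachytene and 0.498% and 0.502% in leptotene/zygotene.

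Promoters of some genes that moved in opposite directions are shown as examples, with their CG dinucleotides marked. These genes were picked by hand, and Tdrd5, Piwil2 and Tnp2, which also passed the test, are not shown. The sequences are from RefSeq GRCm38.p6, from 250 bases before to 50 bases after the first start listed for each gene. They are written 5′ to 3′ on the strand of the gene with every CG in capitals. The first 3 belong to the piRNA pathway genes Piwil1 (chr5:128735996-128736295, plus strand), Tdrd1 (chr19:56825959-56826258, plus strand) and Pld6 (chr11:59787173-59787472, minus strand), which rose. The last 3 belong to Prm1 (chr16:10796774-10797073, minus strand), Prm2 (chr16:10792056-10792355, minus strand) and Tnp1 (chr1:73015850-73016149, minus strand), which fell.
Piwil1: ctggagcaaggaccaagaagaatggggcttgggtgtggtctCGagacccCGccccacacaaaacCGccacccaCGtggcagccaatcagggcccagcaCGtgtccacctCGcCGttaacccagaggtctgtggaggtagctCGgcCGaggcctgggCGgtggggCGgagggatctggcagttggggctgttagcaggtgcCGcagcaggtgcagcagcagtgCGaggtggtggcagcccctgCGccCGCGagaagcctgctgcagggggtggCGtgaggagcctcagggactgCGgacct
Tdrd1: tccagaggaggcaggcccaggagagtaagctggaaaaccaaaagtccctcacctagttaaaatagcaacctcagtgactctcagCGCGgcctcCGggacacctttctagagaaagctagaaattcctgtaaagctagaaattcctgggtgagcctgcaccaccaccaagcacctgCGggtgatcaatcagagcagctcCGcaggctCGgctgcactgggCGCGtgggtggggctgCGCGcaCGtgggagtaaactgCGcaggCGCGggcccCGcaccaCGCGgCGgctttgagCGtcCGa
Pld6: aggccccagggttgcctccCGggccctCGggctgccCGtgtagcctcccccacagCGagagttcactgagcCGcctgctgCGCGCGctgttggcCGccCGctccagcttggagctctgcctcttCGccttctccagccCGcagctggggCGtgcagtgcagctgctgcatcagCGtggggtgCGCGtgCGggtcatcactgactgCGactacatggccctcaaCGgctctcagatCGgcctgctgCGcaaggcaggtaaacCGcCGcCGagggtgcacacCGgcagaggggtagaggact
Prm1: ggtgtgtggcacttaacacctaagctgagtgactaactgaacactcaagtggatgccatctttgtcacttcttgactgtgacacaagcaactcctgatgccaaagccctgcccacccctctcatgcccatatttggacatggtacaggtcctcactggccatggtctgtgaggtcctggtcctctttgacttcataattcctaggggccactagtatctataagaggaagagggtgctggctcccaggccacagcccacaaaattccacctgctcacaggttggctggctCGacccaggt
Prm2: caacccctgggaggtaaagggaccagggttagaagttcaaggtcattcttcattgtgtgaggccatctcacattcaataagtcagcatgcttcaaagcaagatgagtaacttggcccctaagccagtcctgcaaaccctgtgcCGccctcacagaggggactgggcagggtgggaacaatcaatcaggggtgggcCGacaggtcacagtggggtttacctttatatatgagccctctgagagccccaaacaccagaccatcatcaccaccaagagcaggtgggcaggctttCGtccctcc
Tnp1: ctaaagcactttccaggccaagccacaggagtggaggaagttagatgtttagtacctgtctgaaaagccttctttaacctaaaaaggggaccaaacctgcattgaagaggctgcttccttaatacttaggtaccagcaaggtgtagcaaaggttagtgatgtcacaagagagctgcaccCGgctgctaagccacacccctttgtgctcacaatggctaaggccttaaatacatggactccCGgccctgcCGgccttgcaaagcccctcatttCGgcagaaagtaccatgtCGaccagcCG

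There were 18 and 20 CG dinucleotides in the promoters of Piwil1 and Tdrd1, against 1, 3 and 6 in those of Prm1, Prm2 and Tnp1. The Pld6 window held 25. Most of it reads as codons without a stop, so it may be coding sequence rather than promoter. Over all genes with a promoter in the RefSeq table the same contrast held as a description. The median was 24 CG dinucleotides among 239 genes higher in pachytene, 7 among 506 genes lower in pachytene and 20 among all 10823 tested genes with a promoter. Fewer than 10 were found in 12.1% of the promoters of higher genes, 56.5% of those of lower genes and 22.8% of all tested. The 7 protamine and transition protein genes all had fewer than 10, as did 11 of 17 tail genes, whereas 1 of 18 piRNA pathway genes did. A promoter was matched for 81.6% of the higher genes, 82.5% of the lower genes and 81.7% of the 13255 tested genes outside chromosome 18. Promoters of chromosome 18 were not analysed here. RefSeq listed 32851 promoters for 27025 gene symbols, and only the first listed of each symbol was used. That start may not be the one used in these cells.

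Letters of 2 known motifs were also searched on both strands. The core letters bound by MYB proteins, CAACNG, read on either strand, were in 47.7% of the promoters of genes higher in pachytene, 33.8% of those of lower genes and 34.8% of all tested, and in 35.1% of all 27025 promoters of the table. The full cyclic AMP response element TGACGTCA, the site of CREM, was in 1.26% of the higher promoters (3 of 239) and 4.35% of the lower (22 of 506). It was in 3.27% of all tested promoters and in 1.88% of the table. The shorter core TGACG, read on either strand and lying within the full element, was in 31.4%, 25.1% and 30.6% of the same groups and in 21% of the table. Both TGACGTCA and TGACG contain a CG, and the groups differed in CG dinucleotides. The part of CG content in these shares was not tested. A match is a description of the letters in this window and was not tested against binding.

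**Figure D3:**
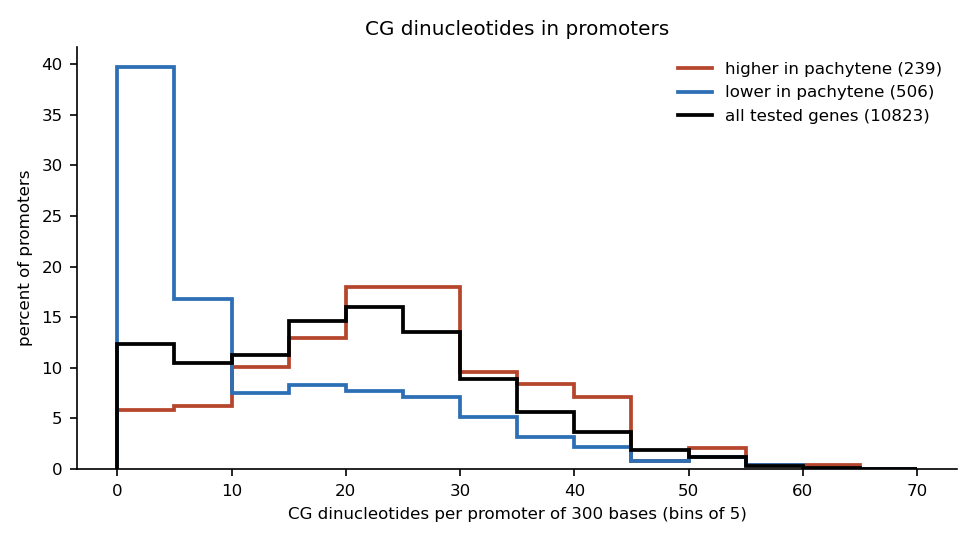
Share of promoters, in percent, by the number of CG dinucleotides in 300 bases around the start, in bins of 5, for genes higher in pachytene (239), lower in pachytene (506) and all tested genes (10823). Fewer than 10 CG dinucleotides were found in 12.1% of promoters of higher genes and in 56.5% of those of lower genes.

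Genes of the synaptonemal complex moved in both directions. Of 11 members of the complex and its HORMA axis, 3 rose and 1 fell in pachytene, with a median log2 fold change of 1.16. Sycp3, which forms the chromosome axes, had 82.9 and 144 CPM in pachytene and 26.1 and 34.3 CPM in leptotene/zygotene (1.90 ± 0.38, adjusted p = 0.0483). Hormad1, the axis protein that monitors synapsis, had 45.3 and 40.9 CPM in pachytene and 14.6 and 8.32 CPM in leptotene/zygotene (1.94 ± 0.40, adjusted p = 0.0497). Tex12, a protein of the central element, was low, at 11.9 and 7.25 CPM in pachytene and 1.59 and 0.627 CPM in leptotene/zygotene (3.31 ± 0.69, adjusted p = 0.0499). Syce2, its partner in the central element, went the other way, at 62.4 and 36.6 CPM in pachytene and 300 and 191 CPM in leptotene/zygotene (−2.31 ± 0.41, adjusted p = 0.0373). None of the 4 overlapped between the groups, but each lost its call when a library was left out. Without replicate 2 of pachytene the adjusted p was 0.192 for Sycp3, 0.124 for Hormad1, 0.0798 for Tex12 and 0.0943 for Syce2. Hormad1 and Tex12 also had 0.12 and 0.157 without replicate 1 of pachytene, and 0.101 and 0.0797 without replicate 2 of leptotene/zygotene. With median-ratio factors or upper-quartile factors 1 member rose instead of 3.

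Genes of recombination and crossing over gave a single call in each of their lists. Among 15 genes of break formation and strand exchange 1 rose, 9 had log2 fold changes above 0 and 6 below, and the median was 0.28. Under the replicate block, where 25.7% of all genes tested rose, 7 of the 15 rose and 1 fell. Without the block a single gene of the 15 passed, and it rose. That gene was Spata22, which acts with MEIOB on single-stranded DNA, at 13.5 and 14.8 CPM in pachytene and 2.55 and 1.31 CPM in leptotene/zygotene (2.98 ± 0.53, adjusted p = 0.0376; 0.112 without replicate 2 and 0.0564 without replicate 1 of pachytene). Mdc1, which spreads the damage signal over the sex chromosomes, had 826 and 683 CPM in pachytene and 448 and 285 CPM in leptotene/zygotene (1.04 ± 0.32, adjusted p = 0.107; 5.3e-06 with the replicate block). Of 11 crossover genes 1 rose, the median was 0.86, and 7 rose with the block. Cntd1, a cyclin-like protein that matures crossovers, had 184 and 186 CPM in pachytene and 77.6 and 58.6 CPM in leptotene/zygotene (1.45 ± 0.28, adjusted p = 0.0458; 0.146, 0.164 and 0.118 without replicate 1 of pachytene, replicate 2 of pachytene and replicate 2 of leptotene/zygotene). Mlh3, of the MutL complex at crossover sites, had 122 and 91.9 CPM in pachytene and 37.9 and 19 CPM in leptotene/zygotene (1.93 ± 0.43, adjusted p = 0.0566; 7.3e-08 with the block). Hfm1, a helicase of crossover formation, had 33.7 and 58.9 CPM in pachytene and 13 and 14.9 CPM in leptotene/zygotene (1.72 ± 0.40, adjusted p = 0.0615; 1.8e-06 with the block).

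The 7 genes that attach telomeres to the nuclear envelope all had log2 fold changes above 0, with a median of 0.92, and all 7 rose with the replicate block. Cdk2, the kinase held at telomeres and late recombination sites, was the single one past the test without it, at 120 and 140 CPM in pachytene and 28.6 and 15.8 CPM in leptotene/zygotene (2.57 ± 0.39, adjusted p = 0.0285). Its activator Spdya had 149 and 119 CPM in pachytene and 90 and 100 CPM in leptotene/zygotene (0.50 ± 0.28, adjusted p = 0.316; 0.026 with the block). The membrane protein Sun1 had 113 and 127 CPM in pachytene and 74.1 and 89.7 CPM in leptotene/zygotene (0.55 ± 0.27, adjusted p = 0.268; 0.0096 with the block). Cohesin, which holds sister chromatids together, had no member past edgeR's test among 8 (1 higher and 3 lower at an unadjusted p under 0.05, and 2 lower by DESeq2), a median of −0.57, and 1 rising and 4 falling with the block. Its meiotic subunit Stag3 overlapped between the groups, at 357 and 533 CPM in pachytene and 315 and 556 CPM in leptotene/zygotene. Smc1b, the meiotic partner of SMC3, had 152 and 212 CPM in pachytene and 331 and 300 CPM in leptotene/zygotene (−0.79 ± 0.28, adjusted p = 0.145; 0.00042 with the block).

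Genes of the meiotic divisions were split. Of 23 members 1 rose, the median log2 fold change was 0.03, and 8 rose and 4 fell with the replicate block. Of all genes tested, 25.7% rose and 25.2% fell with the block. Cdk1, the kinase that drives entry into division, had 35.5 and 44.3 CPM in pachytene and 11.5 and 13.2 CPM in leptotene/zygotene (1.68 ± 0.34, adjusted p = 0.0468). Its call was lost without replicate 1 of pachytene (0.1), replicate 2 of pachytene (0.237) or replicate 2 of leptotene/zygotene (0.0543). Aurka, a spindle kinase, had 276 and 230 CPM in pachytene and 240 and 254 CPM in leptotene/zygotene (0.03 ± 0.25, adjusted p = 0.95). Among 20 DNA replication genes none passed by edgeR, 3 were higher at an unadjusted p under 0.05 and 1 rose by DESeq2. Their median was 0.48, and with the block 8 rose and 1 fell. Rpa1, the single-strand binding protein that also serves recombination, had 306 and 273 CPM in pachytene and 222 and 173 CPM in leptotene/zygotene (0.55 ± 0.26, adjusted p = 0.25; 0.0038 with the block).

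Genes of spermatogonia gave a single call. Of 19 tested genes of spermatogonia and meiotic entry 1 rose and none fell, with a median of 0.06. The gene that rose was Id4, an inhibitor of differentiation known from stem spermatogonia, at 60.5 and 50.3 CPM in pachytene and 12.4 and 8.72 CPM in leptotene/zygotene (2.41 ± 0.35, adjusted p = 0.0269; 0.051 without replicate 2 of pachytene). Dmrtb1, a regulator of the entry into meiosis, was high in all 4 libraries, at 1025 and 1172 CPM in pachytene and 870 and 1160 CPM in leptotene/zygotene.

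**Figure D4:**
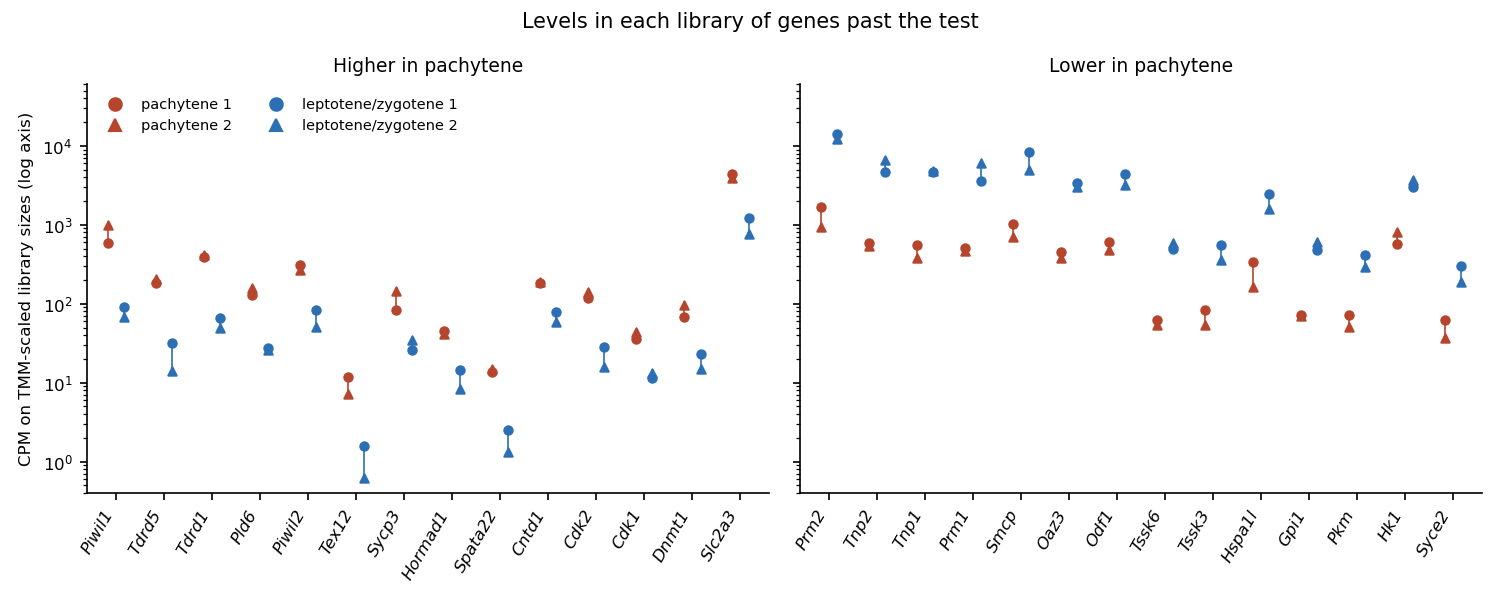
Level of 14 genes that rose (left panel) and 14 genes that fell (right panel) in pachytene, in CPM on TMM-scaled library sizes on a log axis, with pachytene left of leptotene/zygotene, circles for replicate 1 and triangles for replicate 2, joined by a line. In every gene drawn the 2 groups do not overlap, as in Piwil1 at 589 and 1004 CPM in pachytene and 89.7 and 68.5 CPM in leptotene/zygotene.

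Enzymes of glucose use gave some of the larger differences among abundant genes. Slc2a3, the neuronal and germ cell glucose transporter, had 4447 and 3895 CPM in pachytene and 1225 and 766 CPM in leptotene/zygotene (2.07 ± 0.33, adjusted p = 0.0307), and it passed with any library left out. The first enzymes of glycolysis fell. Hk1, hexokinase 1, had 574 and 814 CPM in pachytene and 3041 and 3730 CPM in leptotene/zygotene (−2.29 ± 0.30, adjusted p = 0.0237). Gpi1, which converts glucose 6-phosphate to fructose 6-phosphate, had 71.9 and 70.7 CPM in pachytene and 477 and 604 CPM in leptotene/zygotene (−2.92 ± 0.27, adjusted p = 0.0237). In both enzymes the groups were widely separated, and both passed with any library left out. Pkm, pyruvate kinase, fell by 2.51 ± 0.34 (adjusted p = 0.0237; 0.0506 without replicate 2 of pachytene). Aldoa and Tpi1, of the middle of the pathway, fell, with log2 fold changes of −1.75 ± 0.25 and −1.43 ± 0.24 (adjusted p = 0.0265 and 0.0355), and neither passed without replicate 1 of pachytene (0.107 and 0.15) or replicate 2 of pachytene (0.0799 and 0.167).

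Counted by list, 4 of 11 tested somatic energy isozymes fell and none rose, with a median log2 fold change of 0.17. Of these 11, 6 had log2 fold changes above 0 and 5 below, and 3 rose and 4 fell with the replicate block. Of 15 testis isozymes 3 fell and 1 rose, with a median of −0.06 that was 0.36 with plain library sizes. Under the block 6 testis isozymes rose and 6 fell. Aldoart1 and Aldoart2, the aldolase retrogenes of the testis, fell. Aldoart1 had 138 and 84 CPM in pachytene and 564 and 327 CPM in leptotene/zygotene (adjusted p = 0.0485; 0.127 without replicate 2 of pachytene), and Aldoart2 had 262 and 208 CPM in pachytene and 1102 and 928 CPM in leptotene/zygotene (adjusted p = 0.0237; 0.0565 without replicate 2 of pachytene). Gapdhs, the glyceraldehyde phosphate dehydrogenase of sperm, had 99.1 and 241 CPM in pachytene and 731 and 1928 CPM in leptotene/zygotene (−2.97 ± 0.64, adjusted p = 0.0548; 1.4e-11 with the replicate block). Reads of enzymes with retrocopies, such as these, may be shared between copies, and how the counting treated them is not given.

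The X chromosome stood below the autosomes. Of 431 X-linked genes tested 38 fell (8.82%) and none rose by edgeR's test, with 3 higher at an unadjusted p under 0.05 and none higher by DESeq2. The shares were 4.48% falling and 2.27% rising of 13112 autosomal genes. The median log2 fold change was −0.81 on the X and 0.09 on the autosomes, and −0.39 and 0.50 with plain library sizes. With the replicate block 207 X-linked genes (48%) fell and 32 (7.42%) rose, against 24.4% and 26.3% of the autosomal genes. X-linked genes made up 0.642% and 0.351% of the reads on genes in pachytene and 1.72% and 1.01% in leptotene/zygotene, and 3.58% to 3.78% in the whole testes. Both fractions were thus below the whole testis, and both pachytene libraries were below both leptotene/zygotene libraries. Akap4, the tail gene named above, was the most abundant of the X-linked transcripts described here. Tested X-linked genes summed to 5365 and 3001 CPM in pachytene and 19420 and 11740 CPM in leptotene/zygotene, and without Akap4 to 3716 and 2382 CPM in pachytene and 8666 and 6804 CPM in leptotene/zygotene. Without Akap4 the median log2 fold change was −0.80.

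The 38 X-linked genes that fell had log2 fold changes of −4.03 to −1.48 and a median level of 68.3 CPM in leptotene/zygotene, against 5.29 CPM for all tested X-linked genes. Cylc1, a cylicin of the sperm head, had 33.2 and 26.7 CPM in pachytene and 208 and 115 CPM in leptotene/zygotene (−2.43 ± 0.39, adjusted p = 0.0315). Cdk16, a kinase that spermatogenesis requires, had 17.4 and 24.4 CPM in pachytene and 65.5 and 129 CPM in leptotene/zygotene (−2.22 ± 0.43, adjusted p = 0.0454). Satl1, a relative of polyamine acetyltransferases, and Tex13a, a testis-expressed gene, had log2 fold changes of −2.66 ± 0.41 and −2.48 ± 0.50. None of the 4 overlapped between the groups. Without replicate 2 of pachytene the adjusted p was 0.0759 for Cylc1, 0.0732 for Cdk16, 0.0594 for Satl1 and 0.1 for Tex13a, and without replicate 1 of pachytene it was 0.122 for Cdk16. The count of X-linked genes that fell rested on single libraries, at 1 without replicate 2 and 23 without replicate 1 of pachytene, and at 65 without replicate 1 and 66 without replicate 2 of leptotene/zygotene. Without replicate 1 of leptotene/zygotene 27 X-linked genes rose. Of 8 tested Y-linked genes none passed by edgeR or DESeq2, 3 were lower at an unadjusted p under 0.05, and 7 had log2 fold changes below 0.

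**Figure D5:**
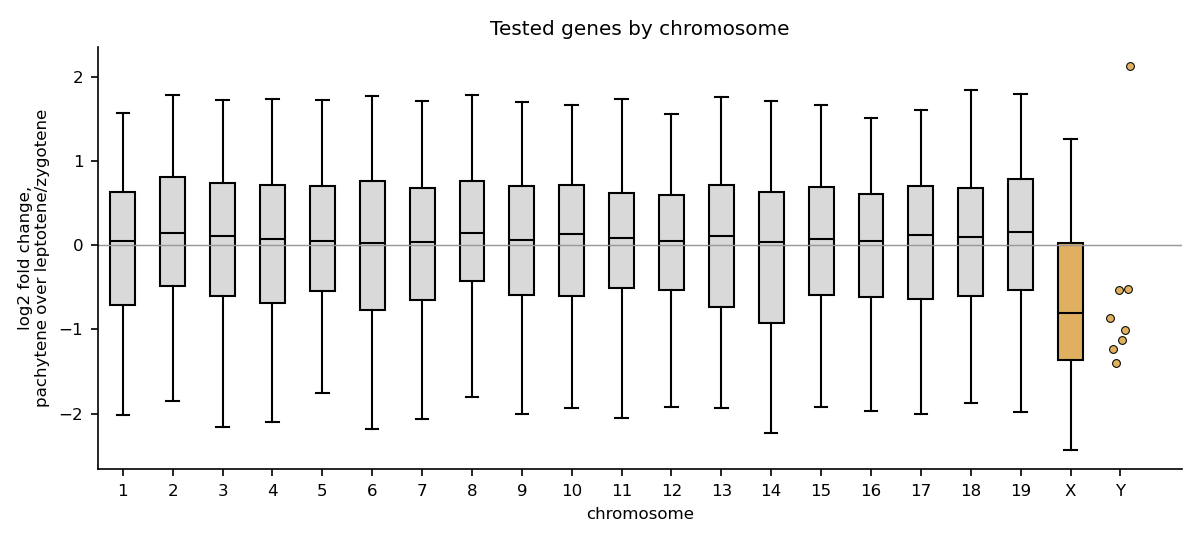
Log2 fold change, pachytene over leptotene/zygotene, of the tested genes of each chromosome, with boxes from the first to the third quartile, a line at the median and whiskers at the 5th and 95th percentiles, and single points for the 8 genes of the Y. The median of the X was −0.81 against 0.09 over the autosomes, and 7 of the 8 Y-linked genes lay below 0.

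Several X-linked genes of basic metabolism have autosomal retrocopies that are active in spermatocytes. The parents and their copies are given side by side. Pgk1, phosphoglycerate kinase, had 0.803 and 0.471 CPM in pachytene and 1.59 and 0.285 CPM in leptotene/zygotene, whereas its retrocopy Pgk2 had 1146 and 642 CPM in pachytene and 3989 and 2246 CPM in leptotene/zygotene (−1.80 ± 0.43, adjusted p = 0.0657; 1.5e-09 with the replicate block). Pdha1, of pyruvate dehydrogenase, had 2.01 and 0.283 CPM in pachytene and 5.09 and 0.513 CPM in leptotene/zygotene, and Pdha2 had 364 and 291 CPM in pachytene and 225 and 168 CPM in leptotene/zygotene (0.74 ± 0.28, adjusted p = 0.169; 0.0003 with the block). Cstf2, an RNA 3′ processing factor, had 19.8 and 19.3 CPM in pachytene and 38.2 and 61.6 CPM in leptotene/zygotene (−1.36 ± 0.36, adjusted p = 0.0802; 2.9e-05 with the block), and Cstf2t had 157 and 91.1 CPM in pachytene and 60.1 and 22.1 CPM in leptotene/zygotene (1.61 ± 0.56, adjusted p = 0.14; 4.2e-07 with the block). The Cstf2 parent and copy thus had log2 fold changes of opposite sign, and their difference was not tested. G6pd2, the copy of glucose-6-phosphate dehydrogenase, was the single retrocopy past the test and fell by 1.55 ± 0.32 (adjusted p = 0.049; 0.156 without replicate 1 and 0.242 without replicate 2 of pachytene). Of 9 retrocopies tested the median was −0.03, which was 0.39 with plain library sizes, and of 6 tested parents it was −1.02. How reads that match both copies were counted is not given in the sources used here.

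Regulators of transcription and RNA gave few calls. Of 18 spermatogenic transcription regulators 3 fell and none rose by edgeR (1 higher at an unadjusted p under 0.05 and 1 by DESeq2), with a median of −0.41 that was 0.01 with plain library sizes. Spz1, a basic helix-loop-helix zipper protein of the testis, had 1107 and 515 CPM in pachytene and 7045 and 3849 CPM in leptotene/zygotene (−2.75 ± 0.51, adjusted p = 0.0405). Fhl5, the germ cell coactivator of CREM, fell by 1.70 ± 0.31 (adjusted p = 0.0408) and Rfx3, a factor of ciliated cells, by 1.48 ± 0.27 (adjusted p = 0.0411). The last 2 did not pass without replicate 1 of pachytene (0.129 and 0.234) or replicate 2 of pachytene (0.165 and 0.218). Crem itself had 147 and 177 CPM in pachytene and 188 and 291 CPM in leptotene/zygotene (−0.57 ± 0.31, adjusted p = 0.315; 0.0069 with the replicate block). Among 17 germ cell RNA-binding proteins Adad2, with an adenosine deaminase domain, was the single gene that rose, at 25.4 and 48.3 CPM in pachytene and 1.91 and 5.59 CPM in leptotene/zygotene (3.18 ± 0.62, adjusted p = 0.0454; 0.0918 without replicate 2 of pachytene).

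Chromatin and chaperone lists held a few single calls as well. Dnmt1, the maintenance DNA methyltransferase, rose, at 67.9 and 97.6 CPM in pachytene and 22.9 and 14.7 CPM in leptotene/zygotene (2.16 ± 0.38, adjusted p = 0.0372; 0.119 without replicate 2 of pachytene), as 1 of 8 tested DNA methylation genes. Its cofactor Uhrf1 had 140 and 134 CPM in pachytene and 92.9 and 77.5 CPM in leptotene/zygotene (0.69 ± 0.27, adjusted p = 0.172; 0.0016 with the replicate block). Among 11 histone variant genes none passed by edgeR, 4 were higher at an unadjusted p under 0.05 and 2 rose by DESeq2. H3f3b, which encodes histone H3.3, had 632 and 321 CPM in pachytene and 145 and 128 CPM in leptotene/zygotene (1.81 ± 0.39, adjusted p = 0.0531; 1.4e-07 with the replicate block). Hspa1l, the HSP70 of spermatids, was the single one of 19 chaperone genes past the test and fell, at 340 and 165 CPM in pachytene and 2463 and 1581 CPM in leptotene/zygotene (−3.00 ± 0.46, adjusted p = 0.0288). Hspa2, the HSP70 of spermatocytes, was abundant in both groups, at 2932 and 2619 CPM in pachytene and 2319 and 1868 CPM in leptotene/zygotene (0.41 ± 0.26, adjusted p = 0.374; 0.012 with the replicate block). Tnrc6b, a partner of Argonaute proteins, fell by 1.75 ± 0.33 (adjusted p = 0.042; 0.123 without replicate 1 and 0.19 without replicate 2 of pachytene), as 1 of 15 genes of the miRNA machinery.

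Housekeeping complexes gave few calls, and more respiratory chain and proteasome genes lay above 0 than below it. None of 58 ribosomal protein genes and none of 76 respiratory chain genes passed by edgeR, with medians of 0.02 (−0.01 with median-ratio factors) and 0.18. At an unadjusted p under 0.05 there were 4 higher and 1 lower of the ribosomal genes and 8 higher of the respiratory genes. DESeq2 called 1 and 4 higher. Of all 13609 genes tested, 1650 were higher and 2055 lower at that unadjusted p, and DESeq2 called 780 higher and 1266 lower. With the replicate block 6 rose and 3 fell of the ribosomal genes and 23 rose and 1 fell of the respiratory genes. Rplp0, a protein of the ribosomal stalk, had 357 and 313 CPM in pachytene and 347 and 338 CPM in leptotene/zygotene. Log2 fold changes were above 0 in 56 and below 0 in 20 of the respiratory genes, and in 29 and 8 of the proteasome genes. The proteasome median was 0.29, and 11 of its genes rose and 4 fell with the block. Of 37 proteasome genes Psma6, a subunit of the core ring, fell by 1.75 ± 0.31 (adjusted p = 0.0375; 0.137 without replicate 1 and 0.0777 without replicate 2 of pachytene). By annotation, 16 of 698 tested long noncoding RNA genes rose and 53 fell (7.59%), with a median of −0.48, against 279 rising and 566 falling (4.45%) of 12720 protein-coding genes, with a median of 0.09.

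Markers of somatic cells were measured beside these differences, and their part in them was not tested. The 18 Sertoli markers in the table summed to 343 and 231 CPM in pachytene and 177 and 51.3 CPM in leptotene/zygotene, with none of 14 tested past edgeR's test (3 higher at an unadjusted p under 0.05, 2 by DESeq2) and a median of 1.29. Clu, an abundant Sertoli glycoprotein, had 108 and 99.2 CPM in pachytene and 45.5 and 11.8 CPM in leptotene/zygotene (1.89 ± 0.64, adjusted p = 0.132; 3.5e-06 with the replicate block). The 10 Leydig markers summed to 34.7 and 31.3 CPM in pachytene and 18.4 and 7.53 CPM in leptotene/zygotene. None of 7 tested Leydig markers passed by edgeR or DESeq2, 3 were higher at an unadjusted p under 0.05, and all 7 had log2 fold changes above 0, with a median of 1.82. With the replicate block all 7 Leydig markers and 10 of the 14 Sertoli markers rose. Defining markers such as Amh and Fshr of Sertoli cells and Lhcgr of Leydig cells were below the filter in these libraries. Macrophage markers summed to 83.2 and 74.7 CPM in pachytene and 321 and 376 CPM in leptotene/zygotene, most of it Aif1, which fell, at 55 and 62.5 CPM in pachytene and 261 and 348 CPM in leptotene/zygotene (−2.37 ± 0.29, adjusted p = 0.0237). Of 5 tested macrophage markers, 3 fell and 1 rose with the replicate block. C1qb had 4.29 and 1.7 CPM in pachytene and 32.8 and 15.6 CPM in leptotene/zygotene (−3.01 ± 0.65, adjusted p = 0.0549; 3e-08 with the block). Cx3cr1 went the other way and overlapped, at 12.2 and 2.36 CPM in pachytene and 4.77 and 2.17 CPM in leptotene/zygotene. Csf1r, Cd68 and Ptprc, which define macrophages and leukocytes, were below the filter, with at most 3.18 CPM in any library. Peritubular and matrix markers summed to 140 and 95.2 CPM in pachytene and 425 and 397 CPM in leptotene/zygotene. All 14 tested peritubular and matrix markers had log2 fold changes below 0, from −3.64 to −0.05, and 5 of them fell with the block. Their member Actg2, a smooth muscle actin, made up most of the leptotene/zygotene sums. It fell, at 52.4 and 50.3 CPM in pachytene and 270 and 331 CPM in leptotene/zygotene (−2.55 ± 0.27, adjusted p = 0.0237). Myh11 and Fn1, on the same list, overlapped between the groups (−0.60 ± 0.60 and −0.27 ± 0.54, adjusted p = 0.591 and 0.807; 0.039 and 0.319 with the block). Hemgn, a nuclear protein of blood precursors, had 15.9 and 9.89 CPM in pachytene and 69.4 and 57.2 CPM in leptotene/zygotene (−2.29 ± 0.37, adjusted p = 0.0316). Its call was not kept without replicate 2 of pachytene. The globin genes Hba-a1, Hba-a2, Hbb-b1 and Hbb-b2 were listed at 0 in all 4 libraries. Beta-s, the haemoglobin chain named above, had 1.21 and 0.283 CPM in pachytene and 36.6 and 22.1 CPM in leptotene/zygotene. How reads shared by globin copies were counted is not given, so the zeros do not show that globin RNA was absent.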

How the data were processed

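The deposited table holds whole-number read counts per gene for 10 RNA libraries, made by the authors. The submitters' processing notes name HTSeq 0.6.1, the aligners Bowtie 0.12.7 and BWA 0.7.8, the build mm9 and edgeR 3.6.8, without assigning them to steps. Levels are counts per library scaled by TMM to CPM here. Strand and reads shared by gene copies are not described, so overlapping, antisense and near-identical genes are uncertain. The table has 23366 genes and 5 summary entries, which took 45.4% to 64.5% of the reads of the 4 libraries and were left out. Table columns used by no sample numbered 0.

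The 4 libraries were fitted by group with edgeR 4.0.16 (R 4.3.3, limma 3.58.1), with TMM scaling, filterByExpr at a minimum count of 10 and Benjamini-Hochberg adjustment over 13609 genes. The SE is the absolute log2 fold change divided by the square root of F. The test was tried on simulated data. Alternatives were DESeq2 1.42.0, other scalings and filters, all 10 libraries, a replicate block and each library left out.

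Same-numbered libraries were treated as pairs in the blocked fit, although the labels do not say what a number shares. Replicate deviations of the 2 groups correlated at 0.783 over 13609 genes, and same-numbered libraries at 0.905 and 0.895 against 0.841 and 0.85 for crossed ones. Replicates differed beyond sampling noise (chi-square per degree of freedom 41 in pachytene and 56.2 in leptotene/zygotene). As labelled biological replicates without stated animals, their p-values measure the spread between these libraries.

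Genes, members and lists were chosen with earlier results of these data known. Named were the 10 largest rises and falls past the test (at least 10 CPM in the higher group, no overlap), up to 4 members per list past the test or the 2 most abundant, fixed stage markers and retrocopy pairs. Of the 10 largest falls, 1 is not reported here. Piwil2, Prm3, H1fnt, Hils1, Akap4, Gapdhs, Rec8, Tdrd6, Mael, Ddx4, Crem, Satl1, Tex13a, Cylc1 and Cdk16 were added after their values were seen. Chromosomes came from RefSeq by symbol, for 13551 of the tested genes.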

Additional observations from a re-analysis of the deposited data

How the results depend on the processing

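Of 74 named genes past the test, 33 passed in every alternative run and none reversed. Genes past the test numbered 930 (299 higher, 631 lower in pachytene; 51 list members; 38 X-linked lower, 0 X-linked higher). DESeq2 gave 2046 (780 and 1266; 109; 83 X-linked lower), no filter 1718 (659 and 1059; 92; 63), and a 1.5-fold minimum 433 (102 and 331; 31; 7). Upper-quartile factors gave 610 (161 and 449; 37; 17), median-ratio factors 893 (258 and 635), and plain library sizes 1258 (842 and 416; 17 X-linked lower). All 10 libraries gave 3744 (1524 and 2220; 136; 142 X-linked lower and 11 higher). Pairing by replicate number had the widest effect: with the replicate block the 4 libraries gave 6928 (3493 and 3435; 297; 207 and 32), and all 10 libraries with the block 6366 (2693 and 3673; 240; 246 and 37). The replicate block left 1 residual degree of freedom, against 2 without it.

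Leaving out 1 library at a time gave 254 to 2419 genes, 68 to 1109 higher and 186 to 1310 lower, 29 to 133 list members, 1 to 66 X-linked lower and 0 to 27 X-linked higher (by edgeR's test; 2242 to 4272 genes at an unadjusted p under 0.05). The lowest counts came without replicate 2 of pachytene, and the cause was not tested. The lone library of a group was then assumed to vary like the pair in the other. Of 84 named genes not past the test, 34 changed sign in at least 1 alternative and 51 passed with the replicate block. Replicate 1 of leptotene/zygotene, with 3597360 reads on genes, limits what can be measured of genes near its floor of 0.954 CPM.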
